A study of Danio rerio with 6 samples.

Results

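Bone morphogenetic proteins (BMPs), growth and differentiation factors (GDFs), TGF-beta proteins and activins, with their receptors, Smads, Id target genes and secreted antagonists, were followed across the deposited gene table. Members were taken by gene symbol. These were bmp or tgfb followed by a digit or r, and gdf, smad or grem followed by a digit. Names beginning with inhb, acvr or chrd, the Id genes and the noggins were also taken. *bmper* and *tgfbi* were therefore not members and were counted with the other pathway genes. The rule gave 78 of the 32057 genes in the table. Zebrafish embryos of the Tg(*fli1a*:eGFP) line were collected at 28 hpf and their GFP+ cells were sorted for RNA-seq. The nlrc3 MO group (a morpholino against *nlrc3*) and the control MO group had 3 libraries each, and both carried the same transgene. The labels give that stage, and the study's figure legends give a slightly earlier one. The comparison asks how endothelial gene expression differs when *nlrc3*, which encodes a NOD-like receptor family protein, is knocked down.

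Several features limit the groups as a model. A morpholino lowers a transcript or protein for a time and leaves the gene intact, and the nlrc3 MO was injected at a higher concentration than the control MO, so the target and the amount of morpholino cannot be told apart. The *fli1a* promoter is active in endothelium, in part of the blood lineage and in neural crest-derived head mesenchyme, so the sorted cells are a mixture. In bulk samples of this kind, fewer cells of a type and less RNA per cell cannot be told apart. The sources do not state that the 3 libraries of a group came from separate clutches, so the p-values measure only the spread between these libraries.

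In this pathway a dimeric ligand brings together type II and type I serine/threonine kinase receptors. The type I receptor then phosphorylates receptor-regulated Smads (R-Smads), which join Smad4 and enter the nucleus. BMP-type receptors act mainly through Smad1 and Smad5, and TGF-beta and activin receptors mainly through Smad2 and Smad3. Id genes and inhibitory Smads are well-known transcriptional targets of BMP signalling, and the inhibitory Smads in turn damp the pathway. In endothelium, BMP and TGF-beta signals act in sprouting, in vessel maturation and in the choice between arterial and venous fate.

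Levels are given as FPKM (fragments per kilobase of transcript, scaled to the mapped fragments of each library), which corrects for transcript length. Read depth cannot be had from these values, so no counting interval is given. Summed FPKM was 678620 to 687387 in nlrc3 MO and 524846 to 525567 in control MO, and without globin genes it was 442617 to 449918 in nlrc3 MO and 442973 to 443348 in control MO. The targeted gene, *nlrc3*, was listed at 0.26, 0.15 and 0.17 FPKM in nlrc3 MO, against 0.82, 0.70 and 1.09 FPKM in control MO. The groups did not overlap, although all 6 values were low.

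A gene was tested when at least 3 samples reached 0.5 FPKM, and it was called when the limma adjusted p (Benjamini-Hochberg over all 15155 tested genes) was under 0.05 and the fold change on the log2(FPKM + 0.1) scale was above 2 in either direction. That scale understates the change of low genes. Of the 78 members, 56 were tested. In nlrc3 MO, 32 of these were called lower and 0 higher, while 24 were not called. The share called lower was 57.1% of the tested members, beside 20.4% of all tested genes (25.3% were called in either direction), and the share of all tested genes called higher was 4.89%. Among all tested genes with a group mean of at least 5 FPKM, 17.2% were called lower. Of the members, 37 reached that mean, and the share of these called lower was not computed, so the 17.2% has no like member share beside it. The median log2 fold change was -1.52 over the tested members and -0.22 over all tested genes. The groups did not overlap for 50 members, 48 of them lower and 2 higher in nlrc3 MO, beside 68.9% of all tested genes in either direction and 46.1% with nlrc3 MO lower. Without the fold limit 48 members had a limma Benjamini-Hochberg adjusted p under 0.05, beside 63.1% of all tested genes. At an unadjusted limma p under 0.05, 1 member had a positive difference, *id4*. Among the tested members 7 stayed under 0.5 FPKM in every nlrc3 MO library: *gdf10a*, *gdf11*, *tgfb2*, *inhbaa*, *tgfbr3*, *nog1* and *nog3*. These entered the test only through their control MO values and had to differ. Further called members had fewer than 3 nlrc3 MO libraries at 0.5 FPKM and so also needed control MO values to enter. They were *grem2b*, *bmp5*, *bmp7b*, *bmp16*, *nog2*, *bmpr1ba*, *bmpr1bb* and *acvr2ba*, and for them the filter favoured a lower call. Among the 41 members at 0.5 FPKM or more in every sample, 17 were called lower. The share of all genes under that same condition was not computed, so this count has no background beside it. Another scaling, by the median of ratios between samples, put the median of all tested genes at -0.01 and that of the members at -1.32, with 30 members called lower and 0 higher beside 16.6% and 7.69% of all tested genes. With every library rescaled to the same total (TPM), the median of all tested genes was -0.59, and 41 members were called lower and 0 higher, beside 30.1% and 1.88% of all tested genes.

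Markers of other cell types differed between the same libraries. Beside the counts that follow, 20.4% of all tested genes were called lower and 4.89% higher. Of 25 neural crest and head mesenchyme markers tested, 23 were called lower in nlrc3 MO, with the median at -5.32 on the log2 scale, and their summed level was 35.5 to 38.1 FPKM in nlrc3 MO against 1129 to 1157 FPKM in control MO. Several called markers, among them *alx1*, *barx1*, *twist1b* and *crestin*, stayed under 0.5 FPKM in every nlrc3 MO library. They entered the test only through their control MO values and had to differ. *crestin*, a crest marker of zebrafish, was at 0.10 to 0.15 FPKM in nlrc3 MO against 3.30 to 5.65 FPKM in control MO, and *sox10* at 0.69 to 1.0 FPKM in nlrc3 MO against 3.11 to 3.49 FPKM in control MO. The FGF ligand gene *fgf20b* of this list was listed at 0 in every nlrc3 MO library, while *col2a1a* and the crest gene *foxd3* were not called. Of 25 endothelial markers, 6 were called lower and 0 higher, with a median of -0.14 and a summed level of 1005 to 1037 FPKM in nlrc3 MO against 1408 to 1433 FPKM in control MO. That count of lower calls lay near the share of all tested genes. The 6 were *efnb2a*, *dll4*, *egfl7*, *fli1a*, *sox18* and *ets1*, and *fli1a* is the gene whose promoter drives the reporter. Under median-of-ratios scaling *fli1a* (-0.96), *sox18* (-0.81) and *ets1* (-0.80) lost the call, which left 3, and the median was 0.08. Beside this, 16.6% of all tested genes were called lower. Higher calls were made for 12 of 14 erythroid markers and for 11 of 14 myeloid markers, and the myeloid sum was 1346 to 1370 FPKM in nlrc3 MO against 596 to 602 FPKM in control MO. On the TPM scale 4 erythroid and 8 myeloid markers were called higher, beside 1.88% of all tested genes. Of the tested neural markers 5 of 10 were called lower, 2 of 10 skeletal muscle and heart markers were called higher, and 0 of 12 epidermal markers were called. The neural *pax6a* and *neurod1* stayed under 0.5 FPKM in every nlrc3 MO library. The myeloid *marco* and the muscle gene *myog* did so in every control MO library. All of these were called and entered the test only through the other group. On the TPM scale 8 neural markers and 3 skeletal muscle and heart markers were called lower and 1 skeletal muscle and heart marker higher. The shares of all tested genes on that scale were 30.1% lower and 1.88% higher. The part of these cell type differences in the results for the pathway members was not tested.

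**Figure D1:**
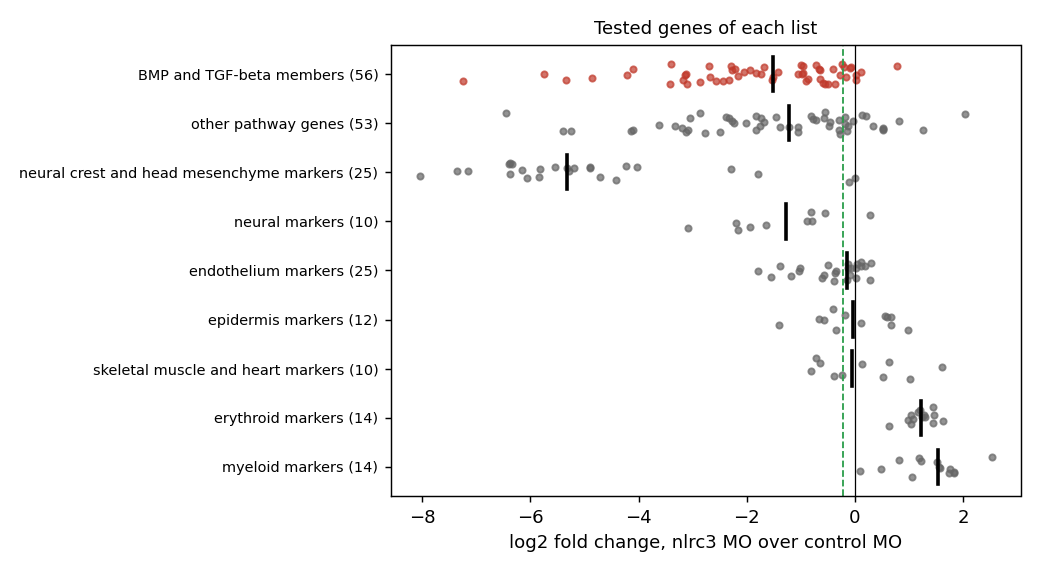
Log2 fold change (nlrc3 MO over control MO) of the tested members, the tested other pathway genes and the tested genes of each cell type marker list, 1 point per gene. Neural crest and head mesenchyme markers lay lowest, with a median of -5.32, and the endothelial markers had a median of -0.14.

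Among the 13 BMP ligands, 7 were tested and 4 were called lower, beside 20.4% of all tested genes. *bmp5*, which acts in skeletal and craniofacial development in the mouse, had 0.55, 0.67 and 0.25 FPKM in nlrc3 MO, against 30.1, 30.4 and 29.5 FPKM in control MO. The groups were far apart, with every nlrc3 MO library under 1 FPKM, and *bmp5* fell by 5.75 on the log2 scale (limma, Benjamini-Hochberg adjusted p = 1.3e-06). *bmp5* needed its control MO values to enter the test. *bmp2b*, which patterns the dorsoventral axis of the early embryo, had 2.39, 2.22 and 1.21 FPKM in nlrc3 MO, against 9.81, 9.51 and 9.29 FPKM in control MO, and fell by 2.29 on the log2 scale. *bmp7b* fell by 3.10 and *bmp16* by 2.05, and both also needed their control MO values to enter the test. *bmp3*, an unusual member that can oppose BMP signalling, was the most abundant BMP ligand in nlrc3 MO at 16.5, 17.6 and 17.6 FPKM, against 28.4, 25.2 and 22.7 FPKM in control MO. Its groups did not overlap, but its log2 fold change of -0.55 (95% interval -0.75 to -0.36) was inside the fold limit. *bmp4*, a ligand with roles in ventral mesoderm and heart, had a log2 fold change of -0.64 (95% interval -1.05 to -0.24), and *bmp6* one of -0.90 (95% interval -1.32 to -0.48), and neither was called. On the TPM scale both were called lower, *bmp4* at -1.01 and *bmp6* at -1.25. The remaining BMP ligands were too low to test. Of these, *bmp2a* was listed at 0.48, 0.79 and 0.68 FPKM in nlrc3 MO and at 0.20, 0.06 and 0.24 FPKM in control MO.

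The GDF ligands were mostly near 0. Of 10 members 7 stayed under 0.5 FPKM in all samples, and 3 were tested. *gdf6a*, a BMP-type ligand of eye and dorsal development, had 11.7, 11.9 and 12.9 FPKM in nlrc3 MO, against 11.4, 11.7 and 10.8 FPKM in control MO. Its log2 fold change was 0.10 (95% interval -0.04 to 0.25) and became -0.27 on the TPM scale. *gdf10a* had 0.27, 0.05 and 0.16 FPKM in nlrc3 MO, against 4.74, 4.33 and 4.28 FPKM in control MO, and fell by 4.22 on the log2 scale. *gdf11*, which patterns the axial skeleton in the mouse, was listed at 0, 0.25 and 0 FPKM in nlrc3 MO, against 1.16, 1.76 and 1.66 FPKM in control MO, and was called lower. Both of the called genes were under 0.5 FPKM in every nlrc3 MO library.

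The TGF-beta ligands split. *tgfb2* was listed at 0, 0.21 and 0 FPKM in nlrc3 MO, against 5.76, 5.59 and 6.21 FPKM in control MO, and was called lower (limma, Benjamini-Hochberg adjusted p = 2.97e-05). It entered the test only through its control MO values and had to differ. *tgfb3* had 1.23, 1.81 and 1.23 FPKM in nlrc3 MO, against 12.9, 13.2 and 13.1 FPKM in control MO, and fell by 3.14 on the log2 scale. *tgfb1a* had 2.47, 3.69 and 3.09 FPKM in nlrc3 MO, against 11.3, 11.7 and 13.3 FPKM in control MO, and fell by 1.95. No nlrc3 MO library reached the lowest control MO library for any of these genes. *tgfb1b*, the other copy of the gene for TGF-beta 1, had 13.4, 15.3 and 12.9 FPKM in nlrc3 MO, against 13.1, 14.8 and 12.95 FPKM in control MO. These ranges overlapped, with a log2 fold change of 0.02 (95% interval -0.17 to 0.22) that was -0.35 on the TPM scale and also dropped below 0 when any of 3 single libraries was left out (control MO 1 or 3, or nlrc3 MO 2, lowest value -0.05). *tgfb1b* made up 75.0 ± 3.05% of the summed TGF-beta ligand level in nlrc3 MO and 30.4 ± 2.14% in control MO (SD, n = 3 each; exact permutation test, two-sided p = 0.1, the smallest that 3 against 3 allows). The FPKM of *tgfb1b* itself overlapped between groups, so this order came from the lower levels of *tgfb1a*, *tgfb2* and *tgfb3*. Of the activin and inhibin subunits, *inhbb* had 1.07, 0.91 and 1.09 FPKM in nlrc3 MO, against 5.19, 5.58 and 5.24 FPKM in control MO, and fell by 2.28. *inhbaa* was called lower from control MO values between 0.62 and 0.90 FPKM, and it lost the call with a pseudocount of 1. Like *tgfb2*, *inhbaa* entered the test only through its control MO values and had to differ.

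Secreted antagonists bind ligands outside the cell and keep them from their receptors. The gremlin gene *grem2b* showed the widest gap of any member, with 0.69, 0.31 and 0.07 FPKM in nlrc3 MO, against 61.0, 59.1 and 52.4 FPKM in control MO. It fell by 7.24 on the log2 scale (limma, Benjamini-Hochberg adjusted p = 9.04e-06). *nog2*, a noggin, had 0.71, 0.43 and 0.34 FPKM in nlrc3 MO, against 17.9, 15.5 and 16.5 FPKM in control MO, and fell by 4.87. *grem2b* and *nog2* needed their control MO values to enter the test. *nog1* had 0.19, 0.25 and 0.39 FPKM in nlrc3 MO, against 3.18, 3.23 and 3.27 FPKM in control MO, and fell by 3.18. *nog3* fell by 1.69 from control MO levels under 1 FPKM, a call that was lost with a pseudocount of 1. *nog1* and *nog3* stayed under 0.5 FPKM in every nlrc3 MO library, so they entered the test only through their control MO values and had to differ. The summed level of the 10 antagonists was 0.95 to 1.94 FPKM in nlrc3 MO and 74.5 to 83.9 FPKM in control MO. The 6 antagonists that were not tested, chordin (*chrd*) among them, did not exceed 0.99 FPKM in any library.

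**Figure D2:**
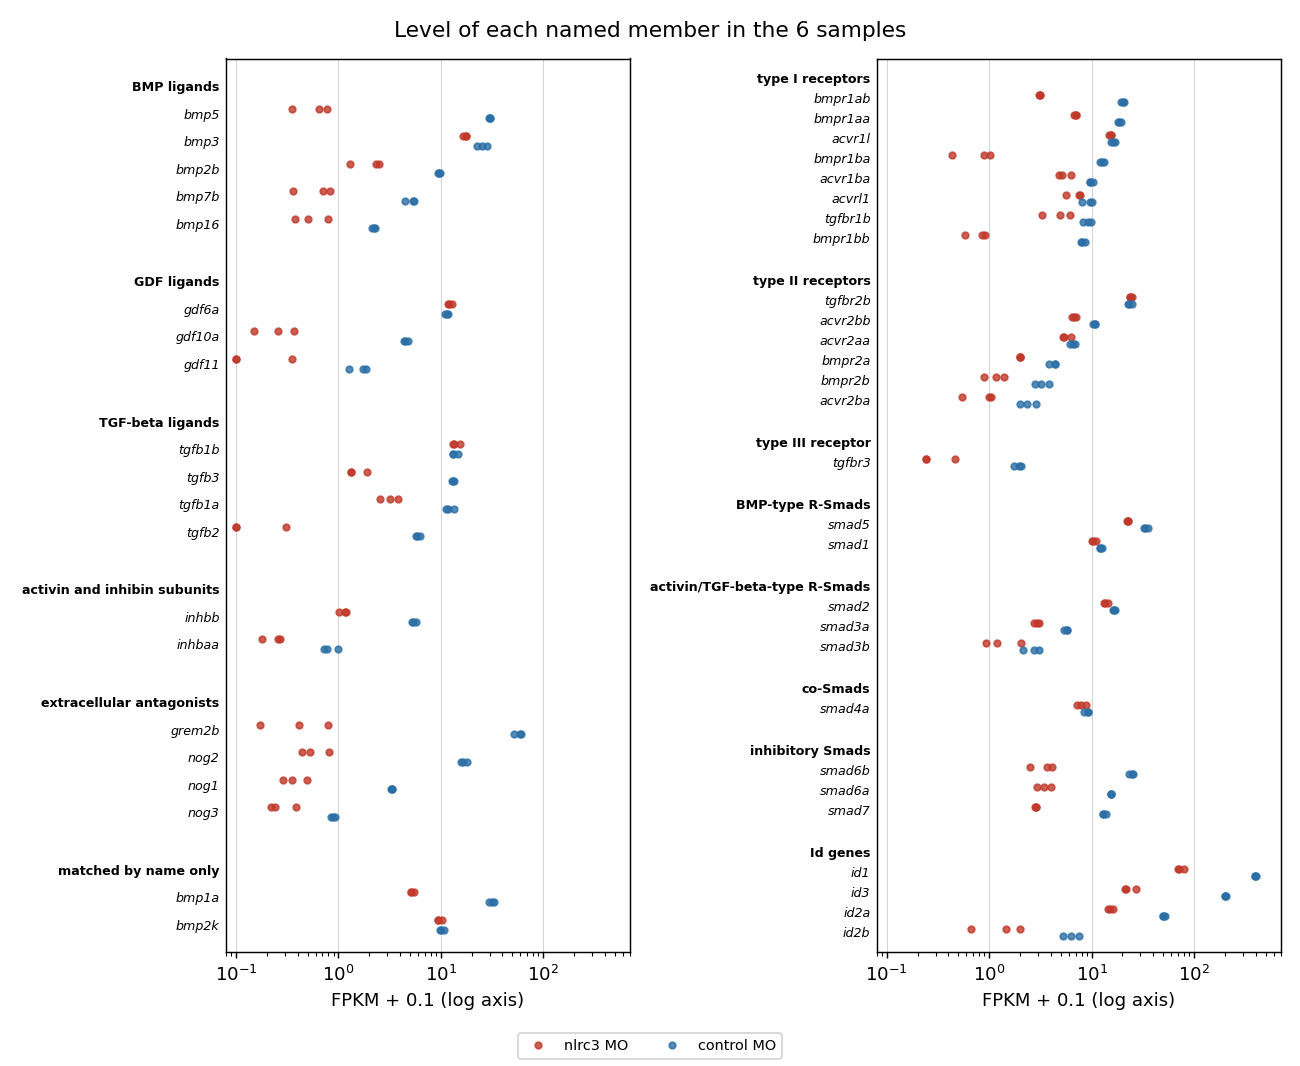
FPKM + 0.1 on a log axis of each named member in the 3 nlrc3 MO and 3 control MO libraries, 1 point per library. *grem2b*, *bmp5* and *tgfb2* show the widest gaps, while the points of *tgfb1b* and *tgfbr2b* overlap.

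The type I receptors carry the kinase that acts on the R-Smads, and 4 of 10 were called lower, beside 20.4% of all tested genes. All 4 were BMP receptors of the *bmpr1* group. *bmpr1ab* had 3.05, 3.04 and 2.94 FPKM in nlrc3 MO, against 20.0, 19.2 and 20.7 FPKM in control MO, and fell by 2.69 on the log2 scale (limma, Benjamini-Hochberg adjusted p = 5.1e-08). *bmpr1aa* had 6.63, 6.93 and 6.92 FPKM in nlrc3 MO, against 19.2, 17.9 and 18.3 FPKM in control MO, and fell by 1.42. *bmpr1ba* fell by 4.10 and *bmpr1bb* by 3.42, and every nlrc3 MO library was under 1 FPKM for both genes, against 12.1 to 12.99 FPKM for *bmpr1ba* and 7.78 to 8.45 FPKM for *bmpr1bb* in control MO.

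The other type I receptors were nearer between the groups. *acvrl1*, which encodes the endothelial receptor Alk1, had 7.46, 7.67 and 5.53 FPKM in nlrc3 MO, against 9.51, 7.95 and 9.97 FPKM in control MO. The log2 fold change was -0.41 (95% interval -0.75 to -0.07), inside the fold limit, and the ranges lay close together. *acvr1l*, the BMP receptor Alk8 of zebrafish, had 15.3, 15.2 and 14.7 FPKM in nlrc3 MO, against 16.1, 16.9 and 15.3 FPKM in control MO, with a log2 fold change of -0.09 (95% interval -0.22 to 0.04) that was 0.12 under median-of-ratios scaling. The TGF-beta receptor *tgfbr1b* had 6.05, 4.83 and 3.16 FPKM in nlrc3 MO, against 9.78, 8.22 and 9.17 FPKM in control MO. Its log2 fold change of -0.98 (95% interval -1.49 to -0.48) was not called, but it was called at -1.19, -1.05 and -1.03 without nlrc3 MO 1, control MO 2 or nlrc3 MO 2. *tgfbr1b* was also called lower on the TPM scale (-1.35). The activin receptor *acvr1ba* had a log2 fold change of -0.88 (95% interval -1.12 to -0.63) and was called lower on the TPM scale (-1.25). Within libraries, the summed level of the *bmpr1* genes over that of the *tgfbr1* and *acvr1b* genes was 0.785 ± 0.0967 in nlrc3 MO and 2.35 ± 0.0755 in control MO (SD, n = 3 each; exact permutation test, two-sided p = 0.1, the smallest possible). The *bmpr1* genes were all called lower and the genes they were set against were not, so this order follows from those calls. *acvr1l* and *acvrl1*, which were not called, were in neither sum.

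Type II receptors activate the type I receptor, and 3 of 8 were called lower, beside 20.4% of all tested genes. *tgfbr2b*, the TGF-beta type II receptor, was the most abundant receptor, with 23.7, 23.4 and 24.6 FPKM in nlrc3 MO, against 23.0, 22.7 and 25.0 FPKM in control MO. The ranges overlapped, and the log2 fold change was 0.02 (95% interval -0.10 to 0.14), -0.35 on the TPM scale and just below 0 without control MO 2. *bmpr2a* was at 1.92 FPKM in each nlrc3 MO library, against 3.74, 4.26 and 4.27 FPKM in control MO. It was called at -1.05, close to the fold limit, and lost the call at -0.84 under median-of-ratios scaling. *bmpr2b* fell by 1.52 and *acvr2ba* by 1.53 on the log2 scale. With a pseudocount of 1, *bmpr2a* and *acvr2ba* lost their calls. *acvr2bb* had 6.94, 6.60 and 6.39 FPKM in nlrc3 MO, against 10.7, 10.7 and 10.3 FPKM in control MO, with a log2 fold change of -0.66 (95% interval -0.82 to -0.51). On the TPM scale *acvr2bb* was called lower (-1.04). *acvr2aa* overlapped between the groups, with a log2 fold change of -0.20 (95% interval -0.42 to 0.02) and 0.01 under median-of-ratios scaling. The type III receptor *tgfbr3*, or betaglycan, which presents ligand to the type II receptor, fell by 2.69 from control MO levels of 1.65 to 1.96 FPKM.

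**Figure D3:**
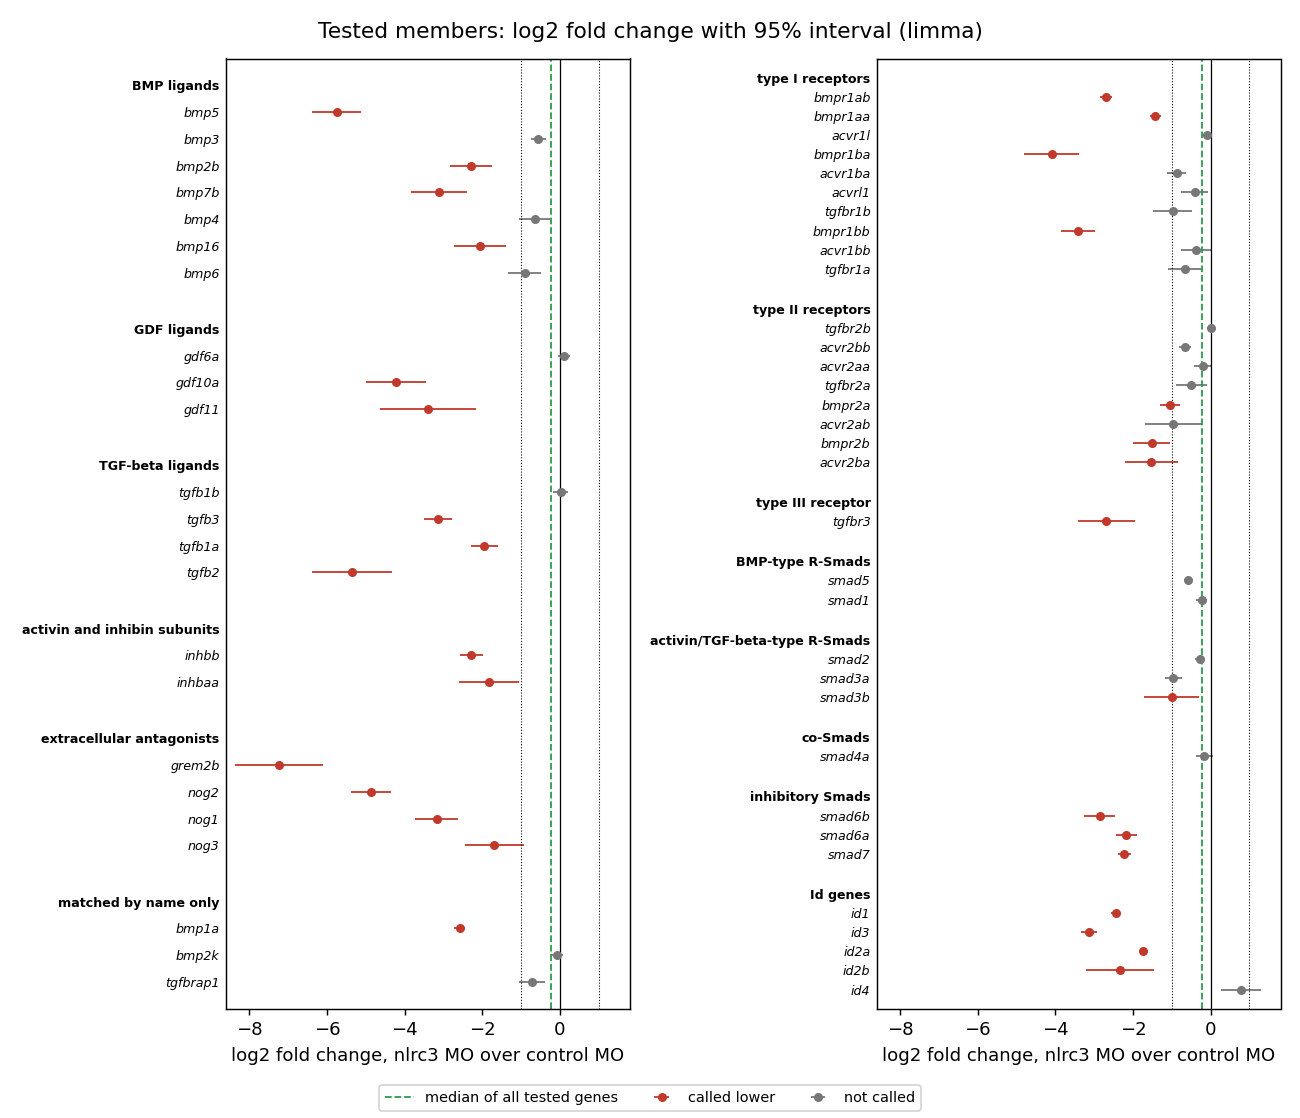
Log2 fold change (nlrc3 MO over control MO) of the 56 tested members with its 95% interval, grouped by class; red members were called lower and grey ones not called, dotted lines mark the fold limit and the dashed line is the median of all tested genes. *grem2b* lies lowest at -7.24, and *id4* is highest at 0.78.

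Of the 5 R-Smads that the rule took, *smad3b* was called lower, beside 20.4% of all tested genes, and the others were inside the fold limit. *smad5* was the most abundant Smad, with 22.5, 21.9 and 22.4 FPKM in nlrc3 MO, against 32.4, 33.4 and 35.1 FPKM in control MO, and a log2 fold change of -0.59 (95% interval -0.70 to -0.49). *smad1* had a log2 fold change of -0.23 (95% interval -0.37 to -0.09) and *smad2* one of -0.27 (95% interval -0.41 to -0.14), with groups that did not overlap for either gene. *smad3a* was at -0.96 (95% interval -1.19 to -0.74) and was called lower on the TPM scale (-1.33). *smad3b* was called at -1.01 from values of 0.83, 1.93 and 1.09 FPKM in nlrc3 MO, against 2.96, 2.67 and 2.05 FPKM in control MO. Its call was lost under median-of-ratios scaling (-0.80) and with a pseudocount of 1 (-0.66), and also without nlrc3 MO 1 (-0.76), nlrc3 MO 3 (-0.94), control MO 1 (-0.90) or control MO 2 (-0.97). The co-Smad *smad4a*, shared by both branches, had 7.82, 8.71 and 7.10 FPKM in nlrc3 MO, against 9.06, 8.25 and 9.07 FPKM in control MO. These ranges overlapped, with a log2 fold change of -0.16 (95% interval -0.38 to 0.05) that was 0.05 under median-of-ratios scaling. A second co-Smad entry, which the table names SMAD4 (1 of many) and the rule did not take, had 0.70, 0.86 and 0.72 FPKM in nlrc3 MO, against 3.62, 3.16 and 3.58 FPKM in control MO, and fell by 2.05 on the log2 scale.

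All 3 inhibitory Smads were called lower, beside 20.4% of all tested genes. *smad6b* had 2.41, 4.01 and 3.54 FPKM in nlrc3 MO, against 25.0, 24.5 and 23.0 FPKM in control MO, and fell by 2.86 on the log2 scale. *smad6a* had 3.37, 2.86 and 3.96 FPKM in nlrc3 MO, against 15.5, 15.4 and 15.5 FPKM in control MO, and fell by 2.17. *smad7*, which also blocks TGF-beta receptors, had 2.68, 2.78 and 2.78 FPKM in nlrc3 MO, against 13.7, 12.8 and 12.97 FPKM in control MO, and fell by 2.22 (limma, Benjamini-Hochberg adjusted p = 2.16e-07). The highest nlrc3 MO library was well under the lowest control MO library for each gene. The summed inhibitory Smads over the summed R-Smads came to 0.188 ± 0.0172 in nlrc3 MO and 0.750 ± 0.0200 in control MO (SD, n = 3 each; exact permutation test, two-sided p = 0.1, the smallest possible). All inhibitory Smads were called lower and the R-Smads other than *smad3b* were not, so this order follows from those calls. The ratio of BMP-type to activin/TGF-beta-type R-Smads was 1.85 ± 0.168 in nlrc3 MO and 1.86 ± 0.124 in control MO, and these ranges overlapped (SD, n = 3 each; exact permutation test, two-sided p = 0.9).

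Id proteins bind basic helix-loop-helix factors and keep them from DNA. Of 5 Id genes 4 were called lower, beside 20.4% of all tested genes. *id1* was the most abundant member, with 71.0, 79.1 and 69.5 FPKM in nlrc3 MO, against 393, 406 and 393 FPKM in control MO. It fell by 2.44 on the log2 scale (limma, Benjamini-Hochberg adjusted p = 1.91e-08), and the libraries of each group lay close together. *id3* had 26.9, 21.2 and 21.6 FPKM in nlrc3 MO, against 201, 200.1 and 208 FPKM in control MO, and fell by 3.13. *id2a* had 14.9, 15.95 and 14.5 FPKM in nlrc3 MO, against 49.3, 49.9 and 51.7 FPKM in control MO, and fell by 1.73, while *id2b* fell by 2.33 at lower levels. *id4* ran the other way, with 2.07, 2.89 and 1.74 FPKM in nlrc3 MO, against 1.48, 1.1 and 1.15 FPKM in control MO. Its groups did not overlap, and its log2 fold change of 0.78 (95% interval 0.26 to 1.3) was inside the fold limit.

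Set against marker sums of the same library, *id1* gave opposite orders. The crest and head mesenchyme sum fell far more than the endothelial sum. Any gene whose fall lies between those falls must give opposite orders, so the orders say nothing more about *id1*. Per summed endothelial marker level it was 0.0717 ± 0.0041 in nlrc3 MO and 0.280 ± 0.00591 in control MO, and per summed crest and head mesenchyme marker level it was 1.99 ± 0.0814 in nlrc3 MO and 0.348 ± 0.00796 in control MO (SD, n = 3 each; exact permutation test, two-sided p = 0.1 for each, the smallest possible). The *smad6* genes per endothelial marker level came to 0.00658 ± 0.000809 in nlrc3 MO and 0.0279 ± 0.000469 in control MO. Their fall also lay between the falls of the endothelial sum and the crest and head mesenchyme sum. This order therefore says nothing more about the *smad6* genes, and their level per crest and head mesenchyme sum was not computed. *acvrl1* on the same scale was 0.00675 ± 0.00114 in nlrc3 MO and 0.00644 ± 0.00076 in control MO, with overlapping ranges (SD, n = 3 each; exact permutation test, two-sided p = 0.6). *tgfbr2b* per endothelial marker level was higher in nlrc3 MO, at 0.0234 ± 0.000803 against 0.0166 ± 0.001 in control MO, without overlap. The FPKM of *tgfbr2b* itself overlapped between groups, with a log2 fold change of 0.02, so this order came from the lower endothelial sum. Abundant markers called lower, such as *fli1a*, weigh heavily in that sum, and the median endothelial marker was at -0.14. *acvrl1* itself was at -0.41, so its overlap on this scale also rests on that sum. Summed Id level over summed BMP-type R-Smad level was 3.53 ± 0.235 in nlrc3 MO and 14.4 ± 0.329 in control MO. The abundant Id genes were called lower and *smad1* and *smad5* were not, so this order follows from those calls.

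**Figure D4:**
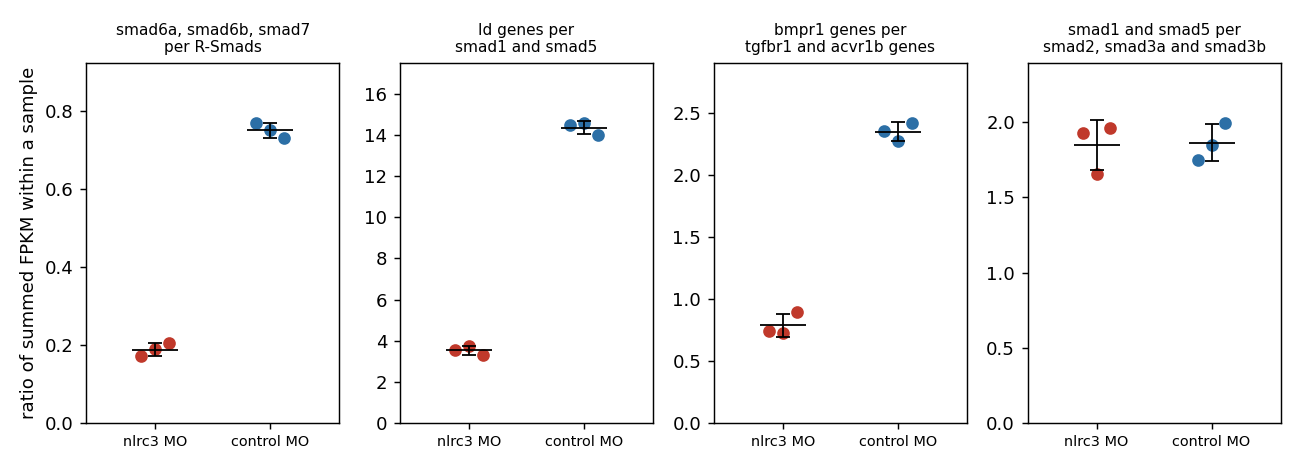
Ratios of summed FPKM within each library, with nlrc3 MO left of control MO, 1 point per library, a line at the mean and bars of 1 SD (n = 3 each). The ratio of inhibitory Smads to R-Smads averaged 0.188 in nlrc3 MO and 0.750 in control MO, while the ratio of BMP-type to activin/TGF-beta-type R-Smads overlapped.

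Many members are pairs of copies left from the genome duplication of teleost fish, named a and b. The share of the a copy in the pair's summed FPKM did not overlap between groups for 10 of 16 pairs (62.5%), beside 57% of the 1924 pairs of the whole table, so the pairs lay near the background. *tgfb1a* made up 18.1 ± 2.17% of its pair in nlrc3 MO and 47.0 ± 3.29% in control MO, and *bmpr1aa* 69.4 ± 0.851% in nlrc3 MO and 48.1 ± 1.07% in control MO (SD, n = 3 each). The shares of *smad3a*, *id2a* and *bmpr2a* overlapped between groups.

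**Figure D5:**
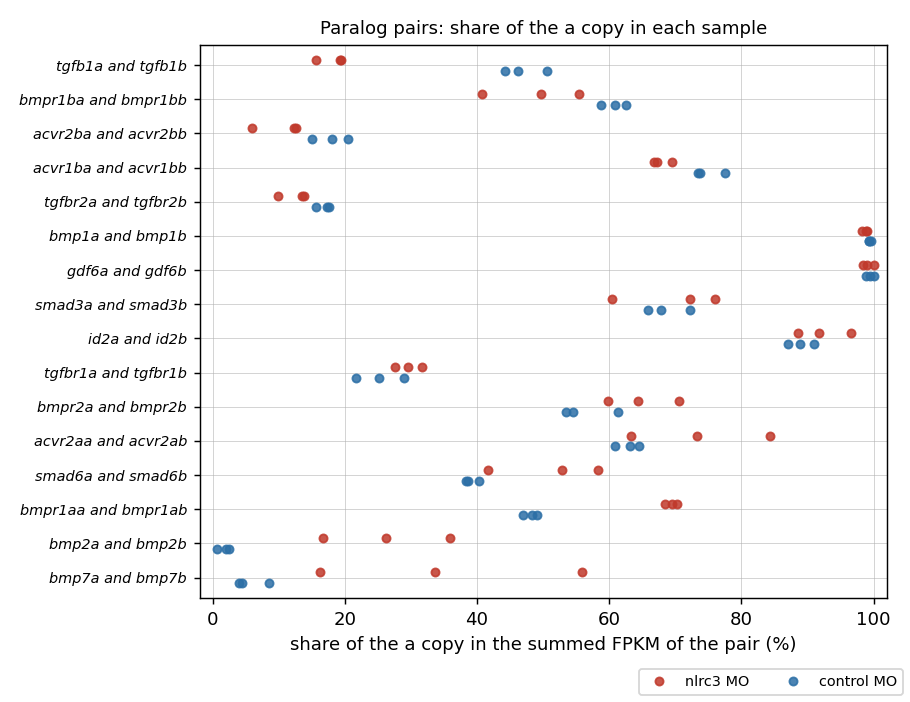
Share (%) of the a copy in the summed FPKM of each a and b pair, 1 point per library. *tgfb1a* lies lower and *bmpr1aa* higher in nlrc3 MO than in control MO.

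Of the remaining genes of the pathway (extracellular regulators, matrix proteins that hold ligand, co-receptors, transcriptional partners and targets), 53 were tested, 29 were called lower (54.7%) and 2 higher. Beside these, 20.4% of all tested genes were called lower and 4.89% higher. *thbs1b*, which encodes a thrombospondin, had 1.94, 1.88 and 2.11 FPKM in nlrc3 MO, against 35.6, 36.4 and 38.0 FPKM in control MO, and fell by 4.15 on the log2 scale. *ccn2b*, of the connective tissue growth factor family, fell by 6.44, *emilin1a* by 5.41 and the follistatin gene *fsta* by 4.10. *ccn2b*, *emilin1a*, *fsta* and some called genes not named here stayed under 0.5 FPKM in every nlrc3 MO library. They entered the test only through their control MO values and had to differ. *msx1a*, a BMP target, fell by 3.63. *bmper*, a secreted BMP regulator made by endothelium, was higher, with 11.7, 10.3 and 10.2 FPKM in nlrc3 MO, against 4.02, 5.27 and 4.10 FPKM in control MO. Its groups did not overlap and its log2 fold change was 1.26 (limma, Benjamini-Hochberg adjusted p = 6.61e-05), but the value was 0.89 on the TPM scale, where the call was lost. The other higher call was *hjv*, a BMP co-receptor gene, at 1.65, 2.12 and 2.25 FPKM in nlrc3 MO, against 0.51, 0.46 and 0.29 FPKM in control MO. *hjv* needed its nlrc3 MO values to enter the test, so the filter favoured a higher call.

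Genes that the rule took by name alone were kept apart. *bmp1a*, a metalloprotease that cleaves procollagen and chordin, had 5.37, 5.04 and 5.07 FPKM in nlrc3 MO, against 31.6, 29.7 and 32.7 FPKM in control MO, and fell by 2.58 on the log2 scale. *bmp2k*, a kinase, overlapped between groups, with a log2 fold change of -0.08 (95% interval -0.24 to 0.09) that was 0.14 under median-of-ratios scaling. Without these genes 31 of 53 tested members were called lower, beside 20.4% of all tested genes.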

How the data were processed

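The deposited table holds 1 FPKM value per gene and library, made by the authors from RNA-seq reads; per the study's methods, reads were aligned with HISAT2 and quantified with StringTie against the zebrafish Ensembl annotation, whereas the submitters' processing notes name CASAVA 1.8 and Bowtie 0.12.2. Columns of the authors' own comparison (fold ratio, log2 fold, p-value and q-value, as deposited) were not used. Table columns named Mo were taken as nlrc3 MO and those named S as the standard (control) MO.

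Genes reaching 0.5 FPKM in at least 3 samples were tested on log2(FPKM + 0.1) with limma 3.58.1 (R 4.3.3; trend), with Benjamini-Hochberg adjustment over 15155 genes, and calls needed an adjusted p under 0.05 with more than a 2-fold difference. The script was tested on simulated data. Depth is unknown from FPKM. Members are named when called, when the higher group mean reached 5 FPKM or, in a class with none such, when most abundant; of the other pathway genes, those named have the largest called fold changes (up to 6 in each direction) with a group mean of at least 5 FPKM, and 1 gene that this rule names is not reported here. *bmp2a*, *bmp4*, *bmp6*, *id4*, *chrd*, and *hjv* were chosen after their values were seen. Members and lists were chosen with earlier results of these data known. Alternatives changed the pseudocount, filter, trend, scaling, fold limit, replicate block and the libraries included. IDs of 77 members matched the gene names table. Ratios used exact permutation tests.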

Additional observations from a re-analysis of the deposited data

How the results depend on the processing

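The 32 members called lower became 27 with a pseudocount of 1, 35 without the filter, 41 on the TPM scale, 30 under median-of-ratios scaling, 47 without a fold limit and 31 to 33 when single libraries were left out. Beside these, lower calls over all genes were 1944 of 15155 with a pseudocount of 1 and 3914 of 24595 without the filter. They were 6496 of 15155 without a fold limit and 2976 to 3127 of 15155 with single libraries left out. Members called higher went to 1 without the filter (*bmp2a*) and to 1 without a fold limit (*id4*), beside 863 and 3062 over all genes. Other pathway genes called higher numbered 1 on the TPM scale (*bmper* was lost) and 6 without a fold limit. Over all genes, calls were 3091 lower and 741 higher, and under median-of-ratios scaling 2511 lower and 1165 higher, and on the TPM scale 4559 lower and 285 higher. Log2 fold changes that changed sign were *gdf6a* (-0.27), *tgfb1b* (-0.35) and *tgfbr2b* (-0.35) on the TPM scale, and *acvr1l* (0.12), *acvr2aa* (0.012), *smad4a* (0.054) and *bmp2k* (0.14) under median-of-ratios scaling. With libraries left out, *tgfb1b* ranged from -0.047 to 0.085 and *tgfbr2b* from -0.0035 to 0.065; the cause was not tested. Deviations of same-numbered libraries were hardly correlated (r = 0.0041, 0.04 and -0.0034 across genes, which are not independent). With 3 libraries per group that lie close together, this check cannot exclude that the numbers pair them. The replicate block gave 32 members lower. FPKM keeps no depth, so levels under about 0.5 FPKM limit the least abundant members.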

Other observations

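The table holds 8 further entries of these families under other symbols. Of these 5 were tested and 5 were called lower in nlrc3 MO, beside 20.4% of all tested genes. An entry whose ID the gene names table gives as *smad10a* had 0.79, 1.58 and 1.63 FPKM in nlrc3 MO, against 9.03, 8.85 and 9.47 FPKM in control MO. The entry given as *tgfbr2l* had 0.89, 0.52 and 0.55 FPKM in nlrc3 MO, against 5.20, 4.18 and 4.65 FPKM in control MO. The entry given as *smad10b* was called at -1.01, close to the fold limit, and lost the call at -0.80 under median-of-ratios scaling. An entry that the deposited table names *alg5*, a different gene, and whose ID the gene names table gives as *smad9*, had 0.61, 0.55 and 0.61 FPKM in nlrc3 MO, against 1.85, 1.79 and 1.70 FPKM in control MO. The deposited KEGG pathway annotation of this entry includes TGF-beta signalling, the pathway of the Smads. The symbol *alg5* differs from that annotation and from the ID, and the reason for the difference was not found.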
